A study of Mus musculus with 16 samples.

Results

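Livers of the AUG mouse line and the del7 mouse line were compared, mutants and wild types of each line together, to describe gene differences that separate the lines whatever the Terc genotype. The 16 liver samples of the series all entered the comparison, 8 from the AUG line and 8 from the del7 line. Terc is the gene of the telomerase RNA, and its transcript also encodes a small protein, TERP. The AUG group holds 4 samples with the genotype mTERC CUG/AUG, and the AUG_WT group holds the 4 wild-type samples of that line. The del7 group holds 4 samples with the genotype mTERC 29_35del, which lacks 7 nucleotides at positions 29 to 35, and the del7_WT group holds its 4 wild-type samples. No group was treated, and all had food ad libitum. The labels used here give no strain, sex, age, litter or date, so line and anything else that separates the lines cannot be told apart. The labels do not state that the samples of a group are separate animals, and the p-values below cover only the spread among the samples, technical or not. The Terc transcript was not analysed here.

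The TERP protein has been linked to autophagy. As background to a comparison of lines, inbred mouse strains are known to differ in gene copy number, in processed pseudogenes (retrocopies, made when a messenger RNA is copied back into the genome) and in immune gene families such as the major histocompatibility complex (MHC).

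A gene was kept as a line gene when 2 conditions held. First, its line difference passed in the comparison of 8 against 8 libraries with genotype as a covariate (edgeR quasi-likelihood test, Benjamini-Hochberg adjusted p under 0.05 over all genes tested). Second, the difference had the same sign and an unadjusted p under 0.05 in the mutants (AUG against del7) and in the wild types (AUG_WT against del7_WT). Of 14421 genes tested, 46 were line genes, or 0.319%. Higher in the AUG line were 25 and lower were 21. The first condition alone gave 47 genes, or 0.326%, of which 26 (0.18%) were higher in the AUG line and 21 (0.146%) lower. Before adjustment, 1199 genes (8.31%) had a p under 0.05. The genotype comparisons are parts of the larger one, so the second condition is a selection and not a further test. A log2 fold change is given throughout as AUG line minus del7 line with its standard error (SE), and a level is given in CPM (counts scaled to a library of 1e6).

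The libraries held between 7714058 and 14629022 counts in genes. AUG_WT replicate 1 stood apart: it lay at 126 on the first principal component of log2 CPM, which held 34.5% of the variance, while the other 15 lay between -21.6 and 10.7. In that library the B cell and plasma cell markers summed to 2402 CPM, against at most 572 CPM in the other AUG line libraries and 419 CPM in the del7 line. Albumin took 4.37% of its counts, against 6.58% to 11.5% elsewhere. Without it 125 line genes were found, 73 higher and 52 lower in the AUG line, and 45 of the 46 were among them. The exception was Rps3a3, which is described below. The count of line genes also moved by more than 1.5 times without del7 replicate 4 (26 genes) and without del7_WT replicates 1 (25), 2 (24), 3 (25) or 4 (26). Hepatocyte markers summed to 67150 CPM in AUG_WT replicate 1 and up to 201697 CPM in its line and between 130995 and 162234 CPM in the del7 line, and the skeletal muscle markers to at most 1.95 CPM.

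The 46 line genes lay on 15 chromosomes. Chromosomes 1 and 11 held 7 each (0.727% and 0.654% of their tested genes), and chromosome 12 held 6 (1.15%). Chromosomes 2 and 13 held 4 each (0.378% and 0.718%), against 0.319% over all genes tested. Chromosome 3, which carries Terc, held none among 766 tested genes, a number at which that overall share gives few. Chromosomes 14, 15, 16 and 19 held none either. Processed pseudogenes made up 11 of the 46, which is 7.05% of the 156 tested, while protein-coding genes made up 28, which is 0.224% of the 12482 tested. The remaining members were 3 long intergenic non-coding RNAs, 2 processed transcripts, 1 antisense RNA and 1 unprocessed pseudogene. At least 4-fold differences were measured for 25 line genes, under 2-fold for 10, and between these for 11. The median size over the 46 was 2.37 on the log2 scale, against 0.12 over all genes tested. The 46 were chosen by this same difference, so a larger median follows from the selection. For members near 0 counts in a line, the size itself is imprecise.

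**Figure D1:**
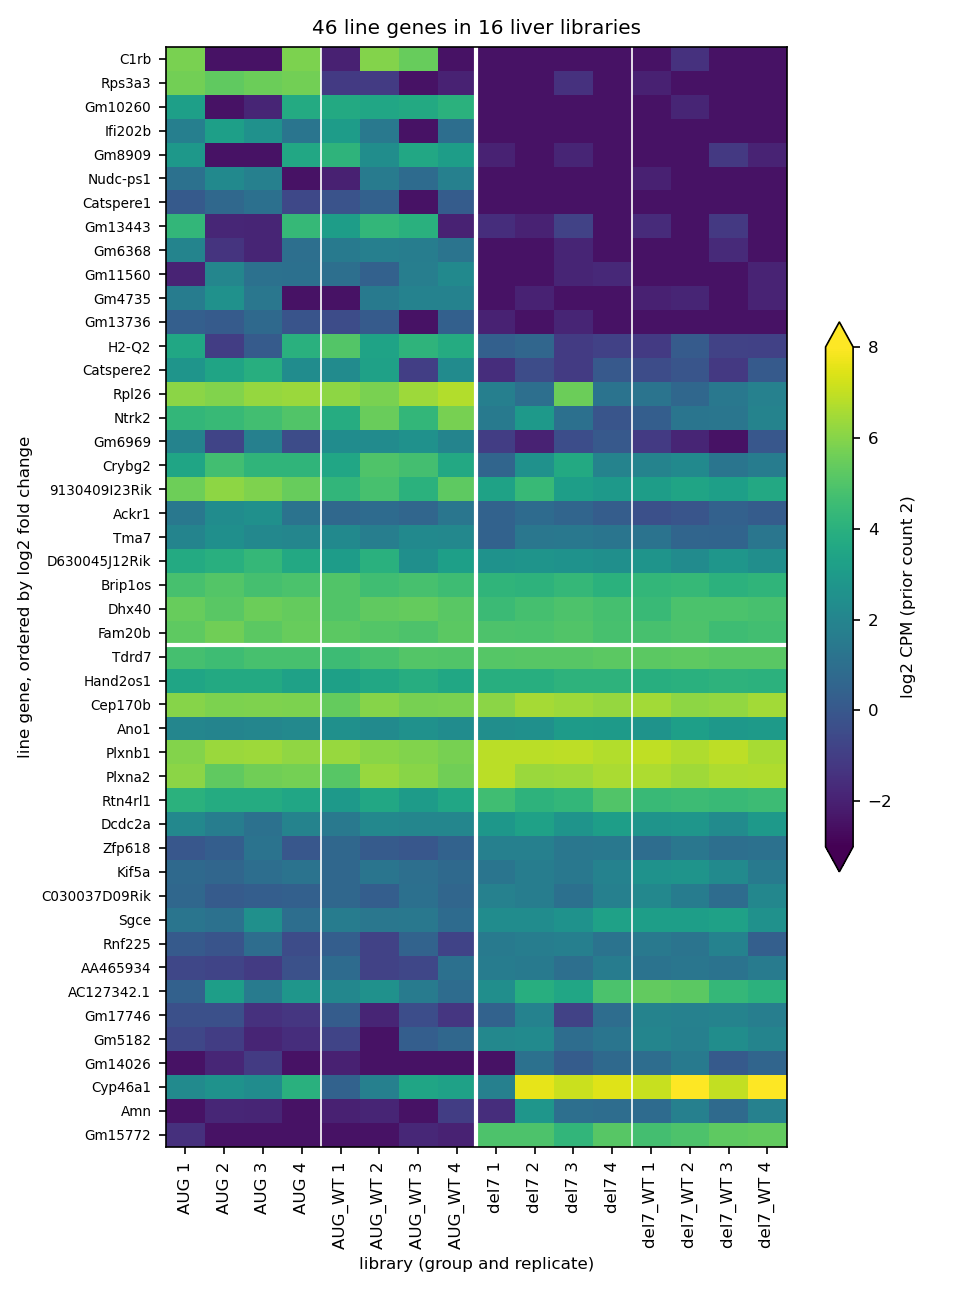
Log2 CPM (colour) of the 46 line genes (rows, ordered by log2 fold change) in the 16 libraries (columns, by group and replicate); the thick white lines separate the lines and the direction. The 25 upper genes are higher in the AUG line and the 21 lower genes are higher in the del7 line, and several upper genes are near 0 in some AUG line libraries.

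Members that differ from a near-identical gene by only a few bases are shown first. Gm15772 is a processed pseudogene on chromosome 5 and a retrocopy of Rpl26, a protein of the large ribosomal subunit encoded on chromosome 11. The 438 bases of the Gm15772 transcript aligned to Rpl26 with 99.5% identity and 2 differences, both within the 435 coding bases. The stretches around them are shown because the aligned bases differ nowhere else. The Rpl26 transcript is longer than the aligned part. Sequences are from the GENCODE M21 transcripts (GRCm38), 5′ to 3′, positions count from the first base of the start codon, and capitals mark the base that differs.
Rpl26, coding bases 157 to 197: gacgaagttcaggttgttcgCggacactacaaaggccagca
Gm15772, same stretch (C177T): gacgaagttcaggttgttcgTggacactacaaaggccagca
Rpl26, coding bases 268 to 308: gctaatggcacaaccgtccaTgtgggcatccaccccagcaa
Gm15772, same stretch (T288C): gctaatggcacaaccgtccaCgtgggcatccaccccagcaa

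Gm15772 had the smallest p of all genes tested. It had 2, 0, 0 and 0 counts in AUG replicates 1 to 4 and 0, 0, 1 and 1 in AUG_WT. In the del7 line it had 387, 376, 196 and 280 counts in the mutants and 369, 330, 297 and 461 in the wild types. Every del7 line library was therefore far above every AUG line library. Pooled over libraries and scaled to depth, the gene was 694-fold higher in the del7 line (exact 95% interval 271 to 2549, counting error only). The adjusted p was 1.51e-10 (edgeR), and it was the only line gene that passed with an adjusted p under 0.05 in mutants (8.11e-08) and in wild types (9.53e-08).

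Rpl26 moved the other way, at 75.0 ± 15.9 CPM in the AUG line and 7.85 ± 15.5 CPM in the del7 line (SD, n = 8 each). Its log2 fold change was 3.59 (SE 0.67, adjusted p = 0.0280, edgeR), and the lines did not overlap. The del7 spread came from del7 replicate 3, with 481 counts against 15 to 40 in the other 7 libraries of that line. The same library had the fewest Gm15772 counts of its line, 196. Over both genes together, Gm15772 took 29.0% of the counts in del7 replicate 3 and between 90.6% and 95.7% in the rest of the del7 line. The sum of both was between 54.4 and 106 CPM in the AUG line, 65.0 CPM in del7 replicate 3 and between 28.0 and 44.6 CPM in the other del7 line libraries. Rpl26 lost its call without any 1 of del7 replicates 1 and 4 and the 4 del7_WT libraries (adjusted p up to 0.0831 over all alternatives). How reads were assigned between the copies was not tested, so the level of each gene alone is uncertain.

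Gm10260, annotated as protein-coding on chromosome 13, is 99.1% identical to Rps18, a protein of the small ribosomal subunit, over 545 aligned bases. Of its 5 differences, 4 lie in the 456 coding bases, and those nearest to each other are shown in the same way as examples of how little the genes differ.
Rps18, coding bases 317 to 357: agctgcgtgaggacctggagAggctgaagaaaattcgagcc
Gm10260, same stretch (A337C): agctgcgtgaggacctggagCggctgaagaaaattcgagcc
Rps18, coding bases 351 to 391: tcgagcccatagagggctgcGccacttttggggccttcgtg
Gm10260, same stretch (G371A): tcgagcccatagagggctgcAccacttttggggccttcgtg

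The Gm10260 counts were 103, 0, 1 and 162 in AUG replicates 1 to 4 and 183, 117, 111 and 201 in AUG_WT. The del7 line had 1 count in 1 library and 0 in the other 7. AUG replicates 2 and 3 were thus as low as the del7 line, and the lines overlapped. The gene passed at an adjusted p of 0.00247 (edgeR). It lost its call without del7_WT replicate 2, with unstranded counts and with limma (adjusted p up to 0.0999 over the alternatives). Rps18 itself was at 92.9 ± 17.4 CPM in the AUG line and 101 ± 12.6 CPM in the del7 line (SD, n = 8), and its log2 fold change of -0.12 (SE 0.12) did not pass (adjusted p = 0.830, edgeR).

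Each of the 11 processed pseudogenes among the line genes had a near-identical relative among the genes tested, sharing between 91.0% and 100% of aligned bases. Beside Gm15772, the pairs were Rps3a3 with Rps3a1, Gm11560 with Ybx1, Gm13443 with Glo1, Gm13736 with Srp9, Gm14026 with Setd3, Gm4735 with Eno1b, Gm5182 with Acaca, Gm6368 with Hsp90ab1, Gm6969 with Cox7a2l and Nudc-ps1 with Nudc. Of these relatives only Rpl26 passed the line comparison (edgeR). Nudc, a nuclear movement factor, was at 25.5 CPM in the AUG line and 25.4 CPM in the del7 line. Hsp90ab1, a cytosolic chaperone, was at 691 and 775 CPM, and Acaca, the enzyme that makes malonyl-CoA, was at 168 and 156 CPM. Eno1b, an enolase gene, had 0 counts in all 8 del7 line libraries and in AUG replicate 4 and AUG_WT replicate 1, and 82 to 176 in the other 6, but did not pass (adjusted p = 0.0962, edgeR). Reads from a pair of such close copies may have been assigned to either.

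Most of these retrocopies were higher in the AUG line, 8 of the 11. Gm11560 had 1, 38, 21 and 24 counts in AUG, 26, 12, 27 and 56 in AUG_WT, and at most 1 in any del7 line library. Gm6368, on chromosome X, had 42, 2, 1 and 23 counts in AUG and 26 to 38 in AUG_WT, against at most 1. Nudc-ps1 was absent from AUG replicate 4 (0 counts) and nearly so from AUG_WT replicate 1 (1 count), and had 14 to 42 counts in the other 6 AUG line libraries. Gm4735 had 0 counts in the same 2 libraries and 25 to 55 in the other 6. Gm13736, whose 253 bases match Srp9 without a difference, had 0 counts in AUG_WT replicate 3 and 8 to 16 in the other 7. Adjusted p for these 5 ran from 0.00247 to 0.0212 (edgeR).

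Gm13443 had 220 and 254 counts in AUG replicates 1 and 4, 1 in each of replicates 2 and 3, 121, 205 and 139 in AUG_WT replicates 1 to 3, and 1 in AUG_WT replicate 4. Gm6969 had 4 to 71 counts in the AUG line and 0 to 9 in the del7 line. Both overlapped between the lines and were less firm, at adjusted p of 0.0285 and 0.0380 (edgeR), and were called in 6 and 5 of the 16 comparisons that each left out 1 library. Gm5182 and Gm14026 were, like Gm15772, higher in the del7 line. Gm5182 did not overlap, with 0 to 18 counts in the AUG line and 18 to 58 in the del7 line, and 0 to 1.44 CPM against 1.73 to 5.06 CPM. Gm14026 had at most 3 counts in the AUG line, 7 to 29 in 7 del7 line libraries and 0 in del7 replicate 1. Gm4735 was called in 10 of the 16 comparisons that left out 1 library. Gm4735, Nudc-ps1, Gm14026 and Gm13443 lost their calls with limma. The names Nudc-ps1, Gm4735, Gm13443 and Gm6969 fall outside the naming rule and were added to account for every retrocopy, and the relatives to show their pairs.

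Rps3a3 met the rule in letter only. It had 570, 374, 485 and 622 counts in AUG, but 4, 3, 0 and 1 in AUG_WT and 1 at most in the wild types of the del7 line. The level in the wild types is at or near the 3-count floor. Its mutant log2 fold change was 9.66 and its wild-type one 2.43, and the difference between them had an unadjusted p of 0.0139 (edgeR; not past the threshold after adjustment). It is described as a mutant difference rather than one held in both genotypes. Hist1h2al, the 47th gene, was similar: 47, 25, 69 and 71 counts in AUG, and at most 1 in every other library, with a wild-type log2 fold change of -0.01. Both genes lie on chromosome 13 and are annotated as processed pseudogenes.

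**Figure D2:**
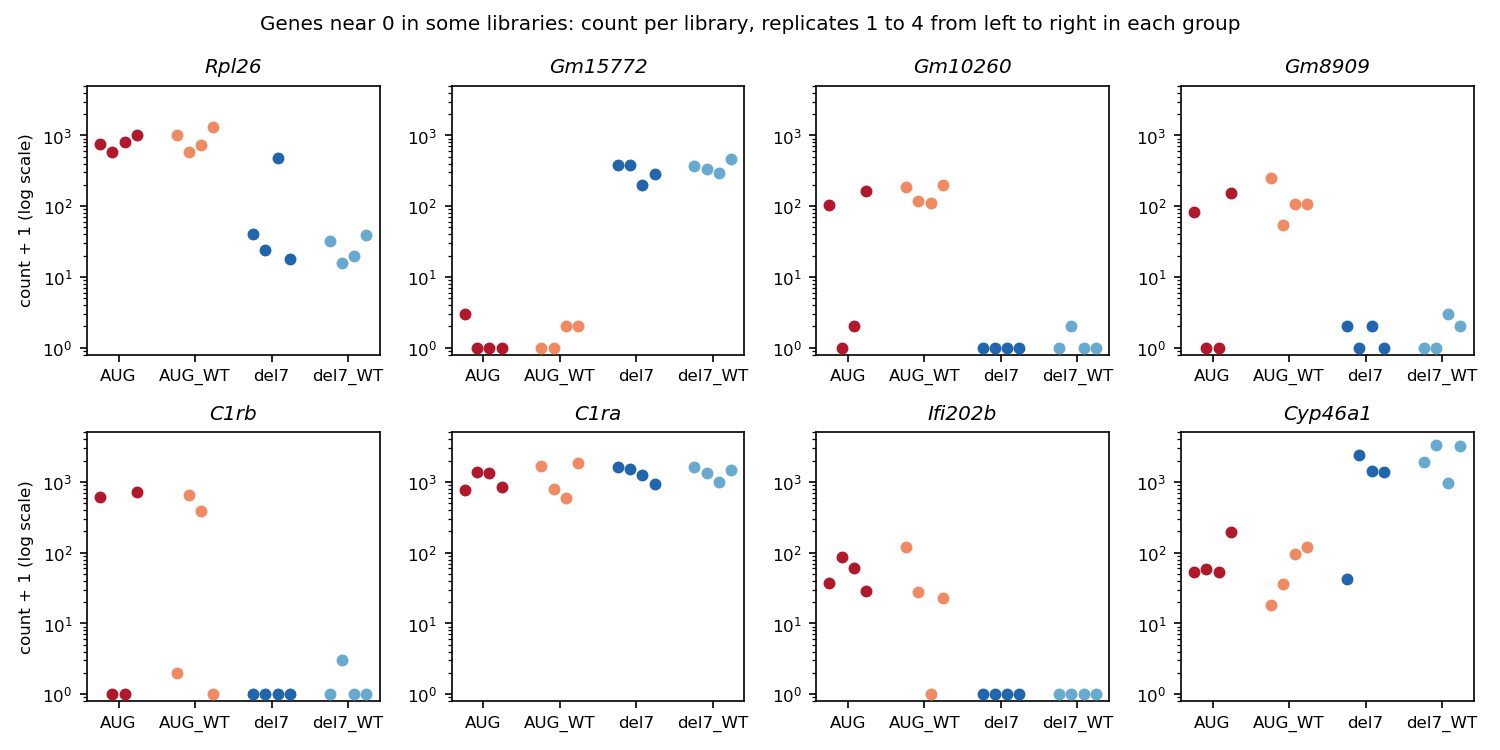
Count plus 1 (log axis) in each library for 8 genes, with replicates 1 to 4 from left to right within AUG, AUG_WT, del7 and del7_WT. Gm15772 is at 0 to 2 in the AUG line and 196 to 461 in the del7 line; C1rb is at 384 to 709 in 4 AUG line libraries and at most 2 in the other 12.

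C1rb encodes a copy of the complement protease C1r, which starts the classical pathway together with C1s. On 97.9% identity over 2432 aligned bases it has 45 base differences and 5 gaps against C1ra on the same chromosome. A 41-base stretch with 7 differences is shown as an example of a place where the genes differ.
C1ra, coding bases 1802 to 1842: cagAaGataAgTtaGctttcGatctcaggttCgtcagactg
C1rb, same stretch (A1805G, G1807A, A1811G, T1813A, G1816C, G1822C, C1833T): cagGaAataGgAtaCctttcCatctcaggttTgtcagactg

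C1rb counts were 617, 0, 0 and 709 in AUG and 1, 656, 384 and 0 in AUG_WT, and at most 2 in the del7 line. AUG replicates 1 and 4 and AUG_WT replicates 2 and 3 were high, and the other 4 AUG line libraries were as low as the del7 line. The log2 fold change of 9.63 (SE 1.95) passed narrowly at an adjusted p of 0.0465 (edgeR) and was called in 4 of the 16 comparisons that left out 1 library. C1ra was between 66.6 and 75.1 CPM in the 4 libraries where C1rb was high, and between 118 and 147 CPM in the other 4 of the AUG line. C1s1, which encodes the partner protease, had 2288 and 2755 counts in AUG replicates 1 and 4 and 1393 and 1821 in AUG_WT replicates 2 and 3, against 4091 to 5629 in the other 4. Neither C1ra (adjusted p = 0.688) nor C1s1 (adjusted p = 0.698, edgeR) differed between the lines as a whole. C1ra and C1s1 fall outside the naming rule and were added after their values were seen. C1rb was the only 1 of the 41 tested complement and coagulation genes that passed (median log2 fold change -0.06, against 0.02 over all genes).

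MHC class I molecules present peptides to CD8 T cells, and their genes lie together on chromosome 17. H2-Q2 and Gm8909, 31 tested genes apart, were the line genes there. H2-Q2 had 130, 3, 10 and 196 counts in AUG and 468, 107, 154 and 166 in AUG_WT, against 3 to 17 in the del7 line. Gm8909, 89.3% identical to H2-D1, had 81, 0, 0 and 151 in AUG and 248, 53, 105 and 107 in AUG_WT, against at most 2. AUG replicates 2 and 3 were the low libraries of their line for both, as they were for Gm10260 and Gm6368. The log2 fold changes were 4.12 (SE 0.71, adjusted p = 0.0159) for H2-Q2 and 6.79 (SE 1.06, adjusted p = 0.00783) for Gm8909 (edgeR). Gm8909, which falls outside the naming rule, lost its call with limma (adjusted p = 0.0994). H2-Q2 lost its call without any 1 of the 4 del7_WT libraries, with the replicate block and with limma (adjusted p up to 0.0638 over the alternatives).

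H2-Q2 was the only 1 of the 21 tested class I presentation genes that passed. The median of that list was 0.45, and 0.14 without AUG_WT replicate 1. Its relative H2-Q1, 93.3% identical and named outside the rule, was at 14.8 ± 4.68 CPM in the AUG line and 8.03 ± 4.77 CPM in the del7 line (SD, n = 8) and did not pass (adjusted p = 0.310, edgeR). None of the 9 tested class II genes passed (edgeR), although 8 had an unadjusted p under 0.05; their median fell from 1.30 to 0.29 without AUG_WT replicate 1.

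On chromosome 1, 6 of the 7 line genes were higher in the AUG line. Ifi202b, an interferon-inducible DNA sensor whose expression is known to vary between mouse strains, had 36, 87, 60 and 28 counts in AUG, 119, 27, 0 and 22 in AUG_WT, and 0 in all 8 del7 line libraries. Set against a floor of 3 counts pooled over the del7 line, it was at least 123-fold higher in the AUG line. AUG_WT replicate 3 alone was without it. The adjusted p was 0.0380 (edgeR), and the gene was called in 2 of the 16 comparisons that left out 1 library; the highest adjusted p over the alternatives was 0.114.

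Catspere1 and Catspere2 are adjacent among the genes tested, 16 tested genes beyond Ifi202b. They are related to the epsilon subunit of the CatSper calcium channel of sperm, and share 90.2% of 1814 aligned bases. Catspere2 had 60 to 153 counts in 7 AUG line libraries, 3 in AUG_WT replicate 3 and 2 to 10 in the del7 line (log2 fold change 3.60, SE 0.53, adjusted p = 0.00397, edgeR). Catspere1, annotated as an unprocessed pseudogene, had 6 to 20 counts in the same 7 libraries, 0 in AUG_WT replicate 3 and 0 in all del7 line libraries, and was at least 27.2-fold higher (adjusted p = 0.0396, edgeR). Catspere1 was called in 3 of the 16 comparisons that left out 1 library and not with the replicate block (adjusted p up to 0.158), and Catspere2 lost its call with limma (adjusted p = 0.0638). The same library was thus low for Ifi202b and both Catspere genes. Their nearest tested neighbours, Adss (log2 fold change -0.06, SE 0.08) and Desi2 (-0.18, SE 0.16), did not pass.

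On the same chromosome, 9130409I23Rik, an uncharacterised protein-coding gene, was at 40.0 ± 18.8 CPM in the AUG line and 10.9 ± 4.46 CPM in the del7 line (SD, n = 8; log2 fold change 1.77, SE 0.25, adjusted p = 0.00361, edgeR). Ackr1, a chemokine receptor that does not signal, was at 2.72 ± 1.61 and 1.08 ± 0.318 CPM (adjusted p = 0.0380, edgeR). Fam20b, a kinase that phosphorylates xylose in proteoglycans, was 1.36-fold higher, at 38.4 ± 5.86 against 28.2 ± 2.65 CPM. Plxna2, a receptor for semaphorins, was the chromosome 1 gene that was lower, at 54.8 ± 15.04 against 96.1 ± 11.3 CPM without overlap. Their adjusted p were 0.0195 for Fam20b and 0.0221 for Plxna2 (edgeR). Of the 16 comparisons that left out 1 library, Ackr1 was called in 5, Plxna2 in 9 and Fam20b in 12, and Plxna2 also lost its call with the replicate block.

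The largest protein-coding gene differences in the del7 line were on chromosome 12. Cyp46a1, the cholesterol 24-hydroxylase that is known chiefly from neurons, was between 1.19 and 15.6 CPM in the AUG line (median 5.47). In the del7 line it was between 3.24 and 305 CPM (median 156). With 41 counts, del7 replicate 1 was at the level of the AUG line, while the other 7 had 965 to 3287. The log2 fold change was -4.56 (SE 0.66, adjusted p = 0.00375, edgeR), and it was called in all 16 comparisons that left out 1 library. Of 14 tested cholesterol hydroxylases and oxysterol genes Cyp46a1 was the only 1 that passed, and the list's median was 0.04.

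Amn, a membrane partner of cubilin, lies 27 tested genes beyond Cyp46a1. It had 0 to 4 counts in the AUG line and 12 to 82 in 7 del7 line libraries, with 2 counts in del7 replicate 1 (log2 fold change -4.69, SE 0.70, adjusted p = 0.00457, edgeR), and it lost its call with limma (adjusted p = 0.0527). The same library was low for Cyp46a1, Amn and the chromosome 2 retrocopy Gm14026. Cep170b, a microtubule-associated protein, lies 25 tested genes beyond Amn and was at 56.4 ± 6.70 CPM in the AUG line and 79.7 ± 9.06 CPM in the del7 line (SD, n = 8). Its lines did not overlap, and del7 replicate 1 was the lowest of its line at 67.01 CPM. Gm17746, a non-coding RNA of the same chromosome, was lower too (log2 fold change -2.43, SE 0.44). Cep170b was called in 13 and Gm17746 in 9 of the 16 comparisons that left out 1 library.

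The lines did not overlap for 25 genes of those tested (0.173%), and 14 of these were line genes, 5 higher and 9 lower in the AUG line. Ntrk2, the receptor for brain-derived neurotrophic factor, was the one with the smallest p after Gm15772. It was at 28.8 ± 14.01 CPM in the AUG line and 2.75 ± 2.12 CPM in the del7 line (SD, n = 8). The log2 fold change was 3.36 (SE 0.42, adjusted p = 0.00224, edgeR). The lowest AUG line library was at 13.9 CPM and the highest del7 line library at 7.51 CPM. In the mutants the log2 fold change was 2.90 and in the wild types 3.86.

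Other differences without overlap were smaller. Plxnb1, a semaphorin receptor, was between 54.0 and 83.1 CPM in the AUG line and between 94.97 and 125 CPM in the del7 line (log2 fold change -0.69, SE 0.09, adjusted p = 0.00247, edgeR). Tma7, a protein tied to translation that lies 2 tested genes away, went the opposite way, at 4.18 ± 0.698 against 1.92 ± 0.56 CPM, also without overlap. The gene between them, Ccdc51, had a log2 fold change of -0.06 (SE 0.13). Rtn4rl1, a relative of the Nogo receptor, was at 11.6 ± 2.83 against 22.8 ± 4.29 CPM, and Dcdc2a, a doublecortin domain protein found in cilia, at 3.43 ± 0.846 against 7.10 ± 1.497 CPM. All 4 were called in each comparison that left out 1 library.

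Brip1os, an antisense RNA, and Dhx40, a predicted RNA helicase, lie 9 tested genes apart on chromosome 11 and were both higher in the AUG line. Brip1os was between 23.5 and 32.8 CPM there and between 16.2 and 20.5 CPM in the del7 line (adjusted p = 0.00273, edgeR). Dhx40 was between 32.1 and 45.4 CPM against 21.9 and 29.9 CPM (adjusted p = 0.00854, edgeR). Tdrd7, a tudor domain protein, had the smallest change of all line genes, at 27.8 ± 3.58 against 36.2 ± 1.35 CPM (log2 fold change -0.38, SE 0.07, adjusted p = 0.0306, edgeR). Its lines did not overlap, but it was called in only 3 of the 16 comparisons that left out 1 library.

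**Figure D3:**
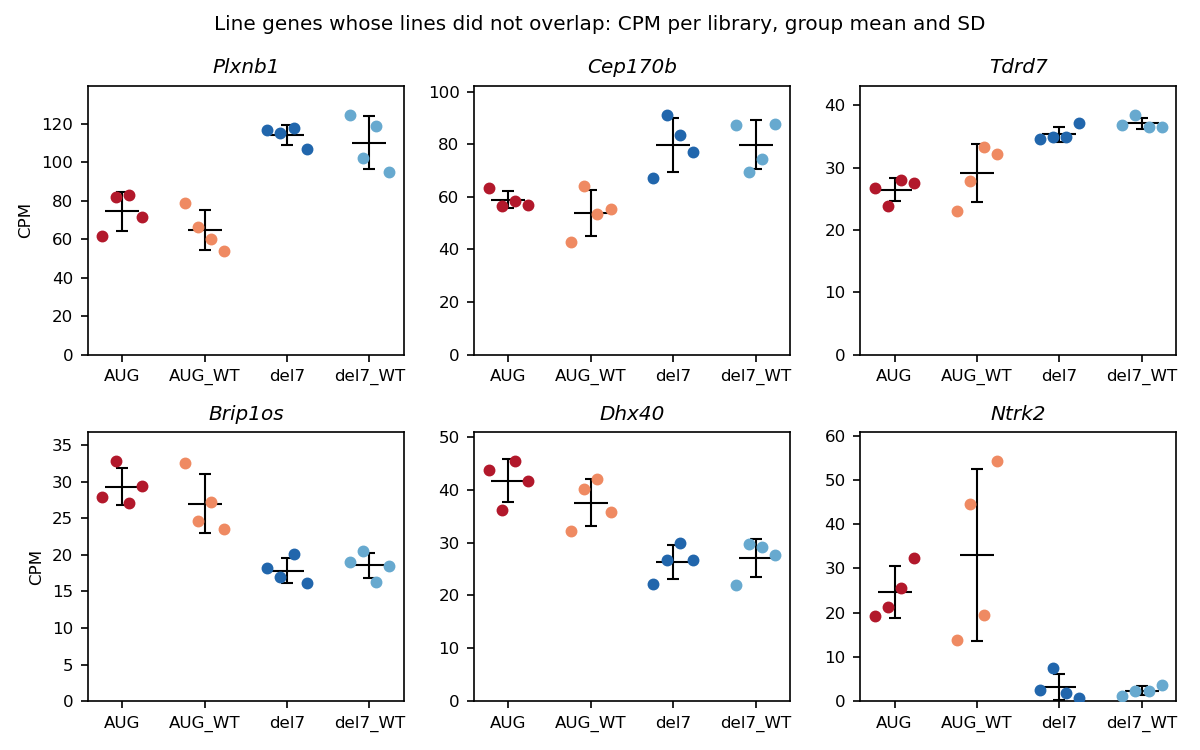
CPM per library (points) with group mean and SD (black, n = 4) for 6 line genes whose AUG line and del7 line libraries did not overlap. Plxnb1, Cep170b and Tdrd7 are lower in both groups of the AUG line, and Brip1os, Dhx40 and Ntrk2 are higher in both.

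Other protein-coding line genes overlapped between the lines. Crybg2, of the crystallin beta-gamma domain family, called in 10 of the 16 comparisons that left out 1 library, was at 19.2 ± 7.74 CPM in the AUG line and 4.56 ± 3.52 CPM in the del7 line (SD, n = 8; adjusted p = 0.0221, edgeR). Sgce, the epsilon sarcoglycan and an imprinted gene, was at 2.60 ± 1.25 against 7.31 ± 2.15 CPM (adjusted p = 0.0184, edgeR). Kif5a, a kinesin heavy chain, Ano1, a calcium-activated chloride channel, and Rnf225, a ring finger protein, were lower in the AUG line with log2 fold changes of -1.10, -0.63 and -1.53. Each of these 3 was called in 4 or 5 of the 16 comparisons that left out 1 library.

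The members not yet named fall outside the naming rule, except C030037D09Rik, and are given to complete the account. D630045J12Rik was higher in the AUG line (log2 fold change 1.05, SE 0.19). Lower were C030037D09Rik (-1.26), Zfp618 (-1.06), Hand2os1 (-0.46), AA465934 (-1.70) and AC127342.1 (-2.31). C030037D09Rik was called in all 16 comparisons that left out 1 library, D630045J12Rik in 8 and AC127342.1 in 5. Zfp618, Hand2os1 and AA465934 were called in only 2 each. Zfp618 was the only 1 of 329 tested Zfp genes that was a line gene. It was also the last gene inside the threshold, at an adjusted p of 0.0483, and A530016L24Rik was the next outside at 0.0531 (edgeR).

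Mutants and wild types were then compared with each other. In the mutants 6 genes passed (0.0416%): Rps3a3, Gm15772, Rps3a1, Hist1h2al, Cd1d2 and 9130409I23Rik. Of these, 3 had the same sign and an unadjusted p under 0.05 in the wild types, which are other libraries, although the estimate of spread is shared. They were Gm15772, 9130409I23Rik and, with the limit given above, Rps3a3. Of all 14421 genes tested, 1701 had an unadjusted p under 0.05 in the wild types (edgeR). Higher in the AUG line were 1331 of these, and lower were 370. In the wild types 5 genes passed (0.0347%): Gm15772, Ntrk2, Rtn4rl1, Tes3-ps and Zfp157. All 5 had the same sign in the mutants, and 3 also an unadjusted p under 0.05 there: Gm15772, Ntrk2 and Rtn4rl1. Over all genes tested, 617 had such a p in the mutants, 254 higher and 363 lower in the AUG line (edgeR).

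Tested directly, the line difference differed between mutants and wild types for 1 gene (0.00693%), Rps3a1, a small ribosomal subunit gene. It had 211, 136, 186 and 200 counts in AUG and 1641, 752, 736 and 1333 in AUG_WT, which overlapped with the del7 line at 643 to 1063. The difference of the log2 fold changes was -2.63 (SE 0.21, adjusted p = 3.47e-05, edgeR), with -2.32 in mutants and 0.31 in wild types. It is the relative of Rps3a3, 98.9% identical over 795 bases, and Rps3a3 was high in the 4 libraries where Rps3a1 was low. Next were Tes3-ps and Cd1d2, a CD1 antigen-presenting molecule, which did not pass (adjusted p = 0.196 for each, edgeR). Tes3-ps had 10 to 28 counts in AUG and 0 to 3 in AUG_WT, against 14 to 28 in the del7 line. Cd1d2 had 21 to 41 counts in AUG and 0 to 9 in the other 12 libraries. Asic5, Cdr2 and Noxred1 followed and did not pass either (edgeR).

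**Figure D4:**
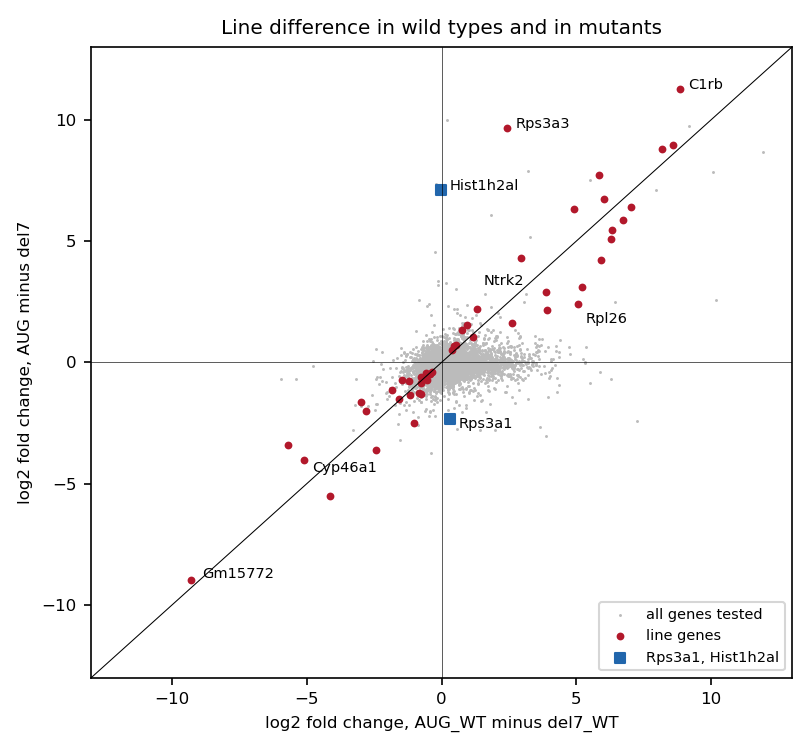
Log2 fold change of AUG minus del7 (y axis) against AUG_WT minus del7_WT (x axis) for all 14421 genes tested (grey) and the 46 line genes (red), with Rps3a1 and Hist1h2al as blue squares and equal values on the diagonal; the axes share no library. Line genes lie in the upper right or lower left, as the rule requires, and Rps3a1, at 0.31 and -2.32, is the gene that passed for a difference between the genotypes.

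The line effect was also read over 34 gene lists. Since 0.326% of all genes tested passed, few calls or none are near the background for lists of this size. Members passed in 5 lists, 1 in each: H2-Q2, C1rb, Cyp46a1, Rpl26 among 55 tested cytosolic ribosomal protein genes, and Ifi202b among 21 genes known to vary between inbred mouse strains. None passed among 36 autophagy and lysosome genes (median 0.02), 29 AMPK and mTOR signalling genes (0.01), 20 telomerase and telomere genes (0.09), 26 female-biased and 14 male-biased liver genes (0.03 and -0.03), 19 clock genes (0.13), or 27 fatty acid and cholesterol synthesis genes (-0.09). At an unadjusted p under 0.05 (edgeR), these lists held 3, 0, 1, 2, 5, 4 and 2 genes in the same order, against 8.31% of all genes tested. The members with such a p were 5 of 14 for the male-biased list and 4 of 19 for the clock list. The Mup, Slc and Serpina families held no line gene among 11, 244 and 15 tested, numbers at which 0.319% of all genes gives few or none.

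The B cell, T and natural killer cell and cell cycle lists had high medians with AUG_WT replicate 1 and lower ones without it. Erythroid markers did not follow: the median of 10 was 0.41, and 0.51 without that library, which had the lowest erythroid sum of its line at 145 CPM. The median of 17 B cell and plasma cell markers was 1.63, and 0.57 without that library. For 11 T and natural killer cell markers it went from 1.47 to 0.28, and for 16 cell cycle genes from 1.02 to -0.03. No member of these lists passed in either fit (edgeR). Cholangiocyte markers, of the bile duct, went the other way: 8 of 9 were lower in the AUG line with a median of -0.59 and none passed. Without AUG_WT replicate 1 the median was -0.92 and 3 passed (edgeR), in a fit where 130 genes passed over all genes tested. They were Sox9, the bile duct transcription factor, Spp1, which encodes osteopontin, and Muc1, a mucin, all 3 named outside the rule. With all 16 libraries 47 genes passed, and the adjusted p were 0.435 for Sox9, 0.727 for Spp1 and 0.663 for Muc1 (edgeR). In bulk liver, fewer cells of a type and less RNA per cell cannot be told apart.

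**Figure D5:**
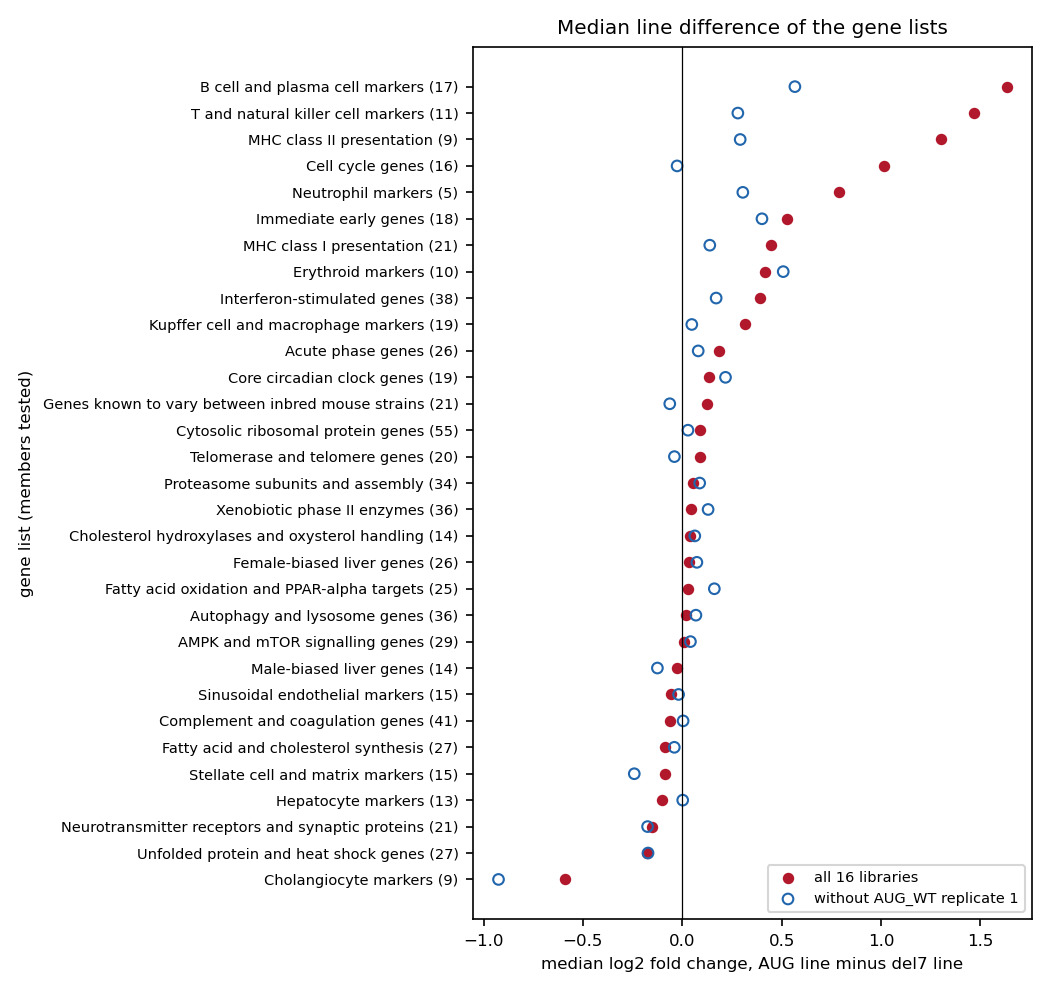
Median log2 fold change (x axis) of the members tested (number in brackets) of each gene list with at least 3, over all 16 libraries (filled) and without AUG_WT replicate 1 (open). The B cell list moves from 1.63 to 0.57 and the cell cycle list from 1.02 to -0.03, while the cholangiocyte list stays below 0 at -0.59 and -0.92.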

How the data were processed

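Total RNA from 16 mouse liver samples was depleted of ribosomal RNA and sequenced as directional libraries, per the labels' protocols. The authors used cutadapt 2.10 and STAR 2.7.9a with GRCm39, per the submitters' processing notes, and deposited whole-number counts per gene, which equal the reverse-strand column of the per-sample tables in all 16 samples. The rows for unmapped, multimapping and no-feature reads stayed out of library sizes; no-feature reads made up 21.8% to 35.0%. Totals ran from 7714058 to 14629022 counts.

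Genes were kept by edgeR's filterByExpr (minimum count 10), scaled by TMM and tested with edgeR 4.0.16 (R 4.3.3) quasi-likelihood F tests: an additive model (genotype and line) for the line effect and a model of 4 group means for mutants, wild types and their difference. The spread is shared over all 16 libraries. SE is the log2 fold change divided by the square root of F. CPM use TMM-scaled totals. On simulated counts with 14263 genes run, the 8 against 8 comparison called 74 of 100 genes changed 2-fold. It called 97 of 100 changed 4-fold and 10 of 14063 unchanged genes. The changed genes were drawn from those with a mean CPM of 1 and above. No simulated library was made to stand apart as AUG_WT replicate 1 does, so these rates may not hold for the real libraries.

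Near-identical tested genes were found with blastn 2.17.0 on GENCODE M21 transcripts (GRCm38), with at least 150 aligned bases, 89% identity and 60% of the shorter transcript. That annotation gave chromosomes, types and gene order; since its build differs from that of the counts, no coordinates are given.

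The members, gene lists and tests were chosen with earlier results of these data known. Named were the 12 line genes per direction with the smallest p and a gene name, 5 per direction among clone and pseudogene names, up to 3 called members per list, the top 5 of each genotype comparison, and runs of line genes at most 5 tested genes apart; others are said to be outside this rule. Alternatives were unstranded counts, RLE scaling, 2 other filters (none, or mean CPM 1 and above), limma 3.58.1 voom with sample weights, DESeq2 1.42.0, a replicate block, each genotype alone and leaving out each library.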

Additional observations from a re-analysis of the deposited data

Results flagged for a closer look

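The 8 libraries of a line were examined on the log2 CPM scale for each of the 47 genes that passed, where any library of that line had more than 10 counts. Of these 76 sets, 12 held a library far from the other 7. The limit used flags about 1 in 20 sets of independent, normally spread values. Some of these sets hold counts at or near 0 and some genes are close copies, so that rate may not apply here. Levels are given as counts. AUG_WT replicate 3 was low for 4 genes, with 0 counts of Ifi202b, 0 of Catspere1, 3 of Catspere2 and 0 of Gm13736, and the first 3 of these lie on chromosome 1. In the del7 line, del7 replicate 1 was low for 3 genes, with 41 counts of Cyp46a1, 2 of Amn and 0 of Gm14026, and the first 2 lie on chromosome 12. Among the others, del7 replicate 3 had 481 counts of Rpl26, far above its line, and AUG replicate 1 had 1 count of Gm11560, far below. AUG replicate 3 was high for Sgce with 58 counts. AUG_WT replicate 1 was lowest for Cep170b after scaling, at 42.7 CPM (608 counts), and del7_WT replicate 4 was low for Rnf225 with 12.

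The line difference of Rps3a1 was not equal in mutants and wild types, by a test of the difference itself: -2.63 on the log2 scale (edgeR adjusted p = 3.47e-05).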

How the results depend on the processing

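The sign of all 46 line genes held under every alternative run. Called in each of the 16 comparisons that left out 1 library were 20 line genes, tested and called in all 7 other alternatives 22, and in all of these together 15. Of 1077 gene values under alternatives, 820 kept their call, 257 lost it and 0 turned. With DESeq2 the line effect gave 155 genes, line genes 120, mutants 50, wild types 70, line by genotype 6, and mutant calls that recur in wild types 28. Limma voom with sample weights gave 104, 99, 32, 12, 3 and 16 in the same order. All 46 line genes were also line genes with DESeq2 and 33 with limma. Wild-type calls were 3 with unstranded counts and 11 with no filter. With each genotype fitted alone, mutants gave 31 and wild types 13, of which 9 and 8 were line genes. Of the 31, 22 were also tested in the wild types alone, and 5 had the same sign and an unadjusted p under 0.05 there (edgeR). Of the 13, 7 were also tested in the mutants alone, and 6 recurred in the same sense. Requiring an adjusted p under 0.05 in each genotype left 1 line gene, and requiring no overlap left 14. Leaving out 1 library each time, the line effect ranged from 26 to 130, line genes from 24 to 125, mutants from 5 to 21, wild types from 1 to 10, line by genotype from 1 to 2 and recurring mutant calls from 2 to 14; each highest count came without AUG_WT replicate 1. The cause of these moves was not tested.

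With a replicate block on the label numbers, the line effect gave 45 genes and line genes 44 (35 of the 46), mutants 9, wild types 1, line by genotype 2 and recurring calls 6. Correlations of same-numbered libraries ran from -0.157 to 0.351, with 11 of 24 pairs over 0.1. Of the 16 libraries, 9 correlated best with their own number. The main comparison did not take the numbers as pairs, and these values do not settle whether they mark pairs. Genes near the 3-count floor carry the least depth.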

Other observations

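Without AUG_WT replicate 1, 80 further genes met the conditions for a line gene, 49 higher and 31 lower in the AUG line. Of these, 77 had the same sign with all 16 libraries and 67 an unadjusted p under 0.05 there (edgeR). The 16 include every library used to choose the 80, so these counts are a description and not a further test. Fitm1, a protein of lipid droplet formation, was at 13.7 ± 3.85 CPM in the remaining 7 AUG line libraries and 4.25 ± 1.11 CPM in the 8 del7 line libraries (SD), against 1.82 CPM in AUG_WT replicate 1. Mtap, an enzyme of methionine salvage, was at 24.1 ± 1.73 and 16.8 ± 2.35 CPM, against 17.3 CPM in AUG_WT replicate 1. Scara3, a scavenger receptor family member, was lower at 1.27 ± 0.548 and 4.34 ± 1.36 CPM, and Map4, a microtubule-associated protein, at 79.5 ± 4.98 and 114 ± 14.2 CPM. AUG_WT replicate 1 was at 6.59 CPM for Scara3 and 113.7 CPM for Map4. For each of these genes the library left out was thus nearer to the mean of the del7 line than to that of its own line. Their adjusted p without that library ran from 0.00162 for Fitm1 to 0.00396 for Mtap (edgeR).

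A rule made after seeing the data picked genes with at most 2 counts in every library of a line and at least 10 in 4 or more of the other. It found 20 of the 14421 genes tested, of which 12 are line genes, 12 are pseudogenes and 7 protein-coding. Of the 12 pseudogenes, Catspere1 and Mup-ps10 are annotated as unprocessed, H2-Ea-ps as polymorphic and the others as processed. The tested genes held 12482 protein-coding genes, 156 processed pseudogenes and 41 unprocessed ones. The rule was made on these values, so its counts are a description and not a test. High in the AUG line were 19, and Gm15772 alone was high in the del7 line and in all 8 of its libraries. Among the 19, Rps3a3 and Hist1h2al were high in the AUG mutants only, with at most 4 counts in any AUG_WT library. The AUG line libraries with at most 2 counts recurred between genes. AUG replicates 2 and 3 were those for Gm10260, Gm6368, Gm8909 and H2-Ea-ps, and AUG replicate 4 and AUG_WT replicate 1 those for Gm4735, Nudc-ps1 and Eno1b. C1rb and Gm13394, on chromosomes 6 and 2, were low in the same 4 libraries.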
